A study of Drosophila melanogaster with 26 samples.

Results

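The genes described here are the nuclear genes for the respiratory chain of mitochondria: 24 for subunits of complex I, 4 for complex II, 7 for complex III, 9 for complex IV and 13 for complex V (ATP synthase), and the gene for cytochrome c. They were listed by their identifiers in the deposited table, by a rule that used no measured value, and make up 58 of its 14659 features. Complexes I and II pass electrons from NADH and succinate to ubiquinone, complex III passes them to cytochrome c, and complex IV passes them to oxygen; complexes I, III and IV pump protons, and ATP synthase uses the proton gradient to make ATP. A few subunits of complexes I, III, IV and V are encoded by the mitochondrial genome, whereas all subunits of complex II are nuclear. In the larval fat body, the insect counterpart of liver and adipose tissue, the chain reoxidizes the NADH made when sugar and fatty acids are oxidized.

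Fat body RNA was sequenced from female larvae of Drosophila melanogaster in the wandering stage at the end of the last instar, raised to that stage on food holding 0.15 M sucrose (control) or 0.7 M sucrose (high sugar). Per the labels, fathers came from 1 of 2 stocks of the Vienna Drosophila Resource Center, and mothers carried UAS-Dcr2 on the X chromosome together with a fat body driver, cg-GAL4 or r4-GAL4. All larvae therefore carried a driver and UAS-Dcr2, on both diets, and no larvae without them were compared; cg-GAL4 is known to drive in haemocytes as well as fat body. The titles call the first stock w1118 and its genotype field calls it VDRC's 60000 stock; the other is 60100. With w1118 and cg there were 6 control and 6 high-sugar libraries, 3 of each in libraries numbered 13 to 21 and 3 in 49 to 54; with w1118 and r4 there were 3 and 3 (55 to 63); with 60100 and r4 there were 4 and 4 (67 to 92). These 4 sets of libraries are named below by their first and last numbers. The labels give dissection or shearing with centrifugation as the means of isolation without saying which was used for which library, and do not say that libraries of a group came from separate cultures, so the p-values measure the spread between these libraries, which may be technical.

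Values are multiples of the upper quartile of a library. Comparisons between genes within a library take the values to be scaled for transcript length, which was not checked here. The sets were scaled over different numbers of features and levels are not compared between them. Changes are high sugar minus control on the log2(value + 0.1) scale, with the standard error of the fit, and were called at an adjusted p below 0.05 (limma, Benjamini-Hochberg over all 6896 features tested, two-sided). Of the 58 genes, 57 passed the filter of a mean of at least 0.1; ND-B8 (CG15434), a complex I accessory subunit, was listed at 0 in all 26 libraries. In bulk RNA, fewer cells of a type and less RNA per cell cannot be told apart.

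Some libraries stood apart in these genes. In set 13-21, control library 14 had the highest control value for 46 of the 57 genes, against 24.3% of all features tested, and the summed value of the 58 genes was 408.4 in it and 268.6 and 246.0 in the other control libraries. In set 67-92, high-sugar library 92 had the lowest value of its group for 41 of 57 genes, and in set 49-54 control library 50 did for 39 of 57. The share of all features lowest in a library was not computed. In set 55-63, high-sugar library 63 had the highest value of its group for 46 of 57, against 36.5% of all features. Control library 57 of that set was highest of its group for 41 of 57, against 31.1%. Libraries 67 and 83 (Pearson r = 0.973 across features) and 75 and 91 (r = 0.977) were closer to each other than the other pairs within a group, whose r ran from 0.909 to 0.969. Calls and counts that changed without them, or with the close pairs averaged, are given beside the results.

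If the values are scaled for transcript length, the genes were as a group among the more abundant of the fat body. The median of the 57 lay between the 76.4th and the 89.8th percentile of all features tested in every library. The gene with the highest mean over the libraries of a set was a subunit of ATP synthase in each: ATPsynC, of the ring that turns in the membrane, in sets 13-21 (27.5) and 49-54 (17.4), ATPsynCF6 in set 55-63 (12.2, beside 12.0 for ATPsynF and 11.6 for ATPsynC) and ATPsynD in set 67-92 (21.3). COX7A of complex IV was next in set 67-92, at 18.5. SdhA, the flavoprotein of succinate dehydrogenase, had the lowest mean of the 57 in sets 13-21 (0.384), 49-54 (0.375) and 67-92 (0.870), and SdhD, a membrane anchor of the same complex, in set 55-63 (0.502, beside 0.510 for SdhA). SdhA read below SdhD in 15 of the 26 libraries and above it in the others.

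Over all 4 sets together, with the set as a term, 12 of 57 genes (21.1%) rose on high sugar and 0 fell. The background was 11.3% of features higher and 17.9% lower. Dividing each library by its column sum turned the background from 779 higher and 1232 lower to 495 and 1920, and quantile normalization turned it to 849 and 808; 8 and 10 of the 57 genes then rose, and 0 fell under either. The change was above 0 for 50 of 57 genes, and its median was 0.26 against -0.08 for all features. At an unadjusted p below 0.05 (limma), 23 of 57 passed, but the share of all features passing there was not computed. The count of 12 was 24 without library 14, 11 without library 50 or 63 and 13 without library 57, 83 or 92. It was 27 without set 13-21, 6 without set 49-54 and 7 without set 55-63. The 12 that rose encode 5 subunits of complex I, 4 of complex III, 2 of ATP synthase and cytochrome c; none of the 4 genes of complex II or the 9 of complex IV passed.

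The calls within sets came from 3 of the 4 sets. In set 13-21 none of the 57 genes was called in either direction, where the background was 1.07% higher and 1.94% lower. At an unadjusted p below 0.05 (limma), 4 passed, and the share of all features was again not computed. The median change was -0.12 against 0.03 for all features. Without library 14 that median was 0.03 against -0.0006, and 1 gene, Cyt-c-p, was higher. In set 49-54, 8 genes rose (14%, near the 11.6% of all features) and 0 fell (11.7% of all features), with a median of 0.32 against -0.01. Without library 50 the 8 became 5 and the median 0.17, and without library 51 they became 7 and 0.43. In set 55-63, 11 rose (19.3%) and 0 fell (background 8.86% and 11.7%), with a median of 0.41 against -0.07 and a change above 0 for 56 of 57. Without library 63 the 11 became 4 and the median 0.32, and without library 57 they became 12 and 0.54. In set 67-92, 6 rose (10.5%, near the 7.79% of all features) and 0 fell (17.8% of all features), with a median of 0.29 against -0.12. Without library 92 the 6 became 15 and the median 0.40, and with the close pairs averaged the 6 became 3. With runs of library numbers in place of sets, this set split into libraries 67 to 76 and 83 to 92. In libraries 67 to 76, 3 genes rose and 0 fell (265 and 611 of 6896 features), with a median of 0.43 against -0.11. In libraries 83 to 92, 0 rose and 1 fell (65 and 51 of 6896 features), with a median of 0.135 against -0.10. The median in set 49-54 turned to -0.08 when libraries were divided by their column sums, which moved the median of all features there to -0.33.

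**Figure D1:**
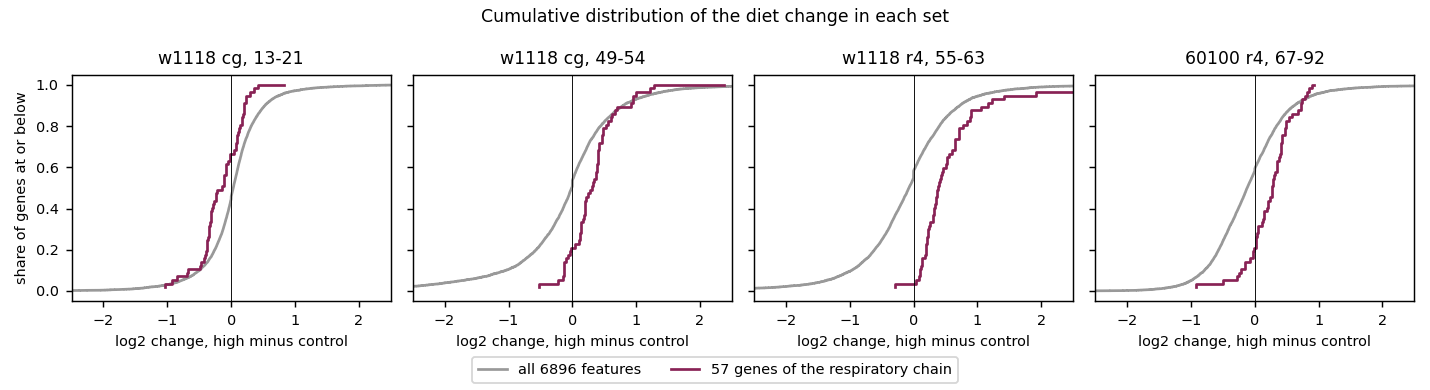
Cumulative share of genes (vertical axis) at or below each diet change in log2(value + 0.1), high sugar minus control (horizontal axis, shown from -2.5 to 2.5), for all 6896 features tested (grey) and the 57 respiratory chain genes (purple), 1 panel per set. The purple curve lies to the right of the grey one around 0 in sets 49-54, 55-63 and 67-92, with medians of 0.32, 0.41 and 0.29, and to the left in set 13-21, with a median of -0.12.

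For 13 of 57 genes the change was above 0 in all 4 sets, against 10.9% of all features tested; 32 genes were above 0 in 3 sets, 9 in 2, 2 in 1 and 1, SdhD, in none. Counted without a test, the high-sugar values lay wholly above the controls for 0 of 57 genes in set 13-21 (10.4% of all features), 18 in set 49-54 (18.9%), 30 in set 55-63 (14.5%) and 6 in set 67-92 (8.4%), and wholly below for 3 (9.96%), 0 (18.6%), 0 (17.9%) and 1 (18.8%). No gene passed the test in more than 2 sets. Those that passed in 2 were ND-75, ND-39, Cyt-c1, RFeSP, COX7C and ATPsyngamma.

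**Figure D2:**
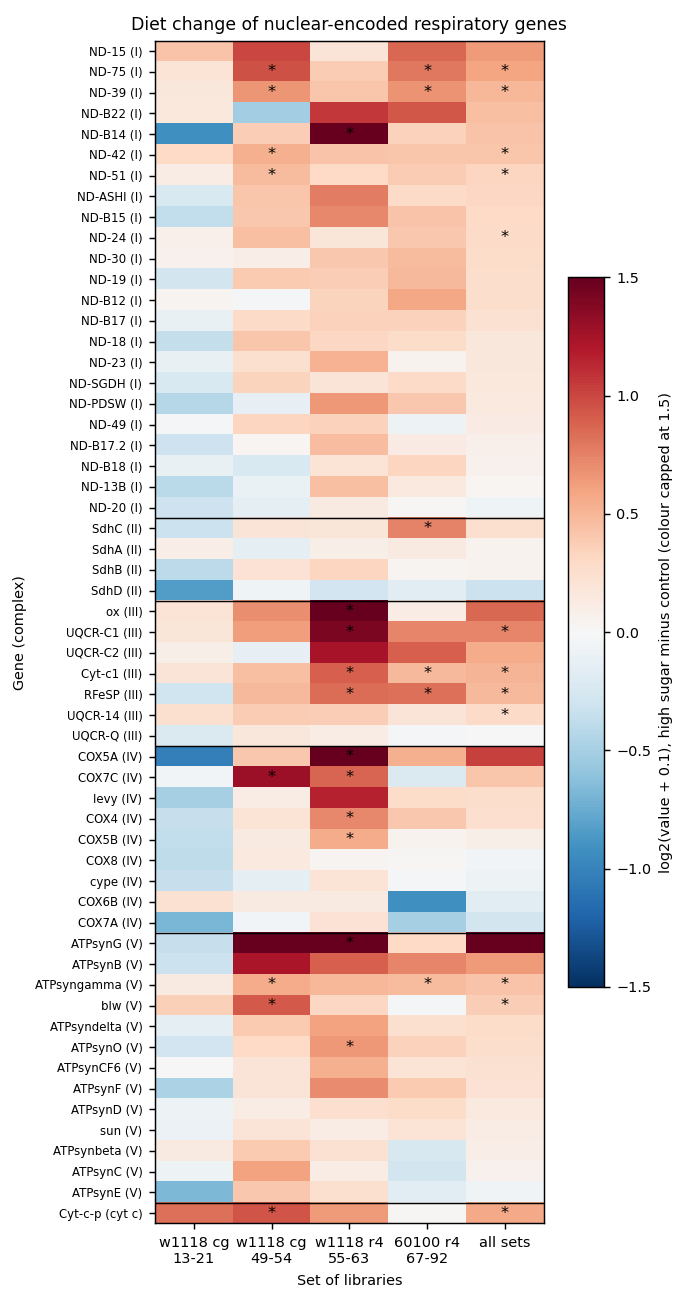
Diet change of the 57 genes in log2(value + 0.1), high sugar minus control, as colour (capped at 1.5 in either direction), with genes in rows by complex, the 4 sets and the fit over all sets in columns, and a star where the adjusted p was below 0.05. Red prevails in sets 49-54, 55-63 and 67-92, blue is frequent in set 13-21, and the 12 stars of the last column are in complexes I, III and V and cytochrome c.

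Complex I, which takes electrons from NADH, had 5 of 23 tested genes higher and 0 lower over all sets, and a median change of 0.26. The 5 are 21.7%, beside 11.3% of all features higher. By set the median was -0.11 (13-21), 0.33 (49-54), 0.38 (55-63) and 0.38 (67-92). Of the 7 core subunits with counterparts in bacteria 3 rose (42.9%). Of 16 tested accessory subunits 2 rose (12.5%, near the share of all features). The core subunits that rose form the arm where NADH is oxidized: ND-75, the largest iron-sulphur subunit, ND-51, which holds the NADH-binding site and the flavin, and ND-24, an iron-sulphur partner of ND-51.

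ND-75 (CG2286) showed the separation most plainly in set 49-54, with 0.601, 0.549 and 0.603 in the control libraries and 1.16, 1.33 and 1.20 on high sugar. In set 67-92 it read 1.99, 2.03, 2.24 and 1.62 in the controls and 3.76, 3.41, 4.57 and 2.42 on high sugar. In set 55-63 it read 1.20, 1.16 and 1.24 against 1.40, 1.43 and 2.01. All high-sugar values of these 3 sets lay above all control values. In set 13-21 the groups overlapped, with 0.314, 0.467 and 0.440 against 0.537, 0.529 and 0.378. The change over all sets was 0.60 ± 0.11 (SE; adjusted p = 0.000316, limma), a 1.51-fold higher level, and passed in set 49-54 (0.95 ± 0.19, adjusted p = 0.000784) and in set 67-92 (0.79 ± 0.16, adjusted p = 0.00249).

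ND-39 (CG6020), an accessory subunit that binds NADPH, passed in the same 2 sets. Its values were 1.07, 1.01 and 0.903 against 1.78, 1.75 and 1.40 in set 49-54, with no overlap. In set 67-92 they were 4.50, 3.65, 4.86 and 3.56 against 6.77, 7.78, 8.05 and 4.46, where only library 92 fell within the control range. The change was 0.50 ± 0.10 over all sets (adjusted p = 0.00102, limma), 0.66 ± 0.20 in set 49-54 and 0.67 ± 0.17 in set 67-92. The call in set 49-54 was lost without library 51, 52 or 53 (0.60 to 0.62, adjusted p 0.065 to 0.0708) and under column-sum scaling (0.28).

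The other risers of complex I changed less. ND-42, an accessory subunit, changed by 0.42 ± 0.09 (adjusted p = 0.00135, limma), ND-51 by 0.32 ± 0.08 (adjusted p = 0.00605) and ND-24 by 0.29 ± 0.09 (adjusted p = 0.019); all 3 were above 0 in the 4 sets. ND-24 was not called under column-sum scaling (0.15) or without set 49-54, 55-63 or 67-92 (0.24, 0.32 and 0.24), and ND-51 not under column-sum scaling (0.18) or without set 49-54 or 67-92 (0.28 and 0.30). The remaining core subunits did not pass: ND-30 was at 0.28 ± 0.13, ND-23 at 0.16 ± 0.14, ND-49, which lies near the ubiquinone site, at 0.13 ± 0.08 and ND-20, the terminal iron-sulphur subunit, at -0.07 ± 0.08. ND-15, an accessory subunit, had the highest change of the complex, 0.64 ± 0.24, but its libraries spread widely (0.361, 1.34 and 2.70 among the controls of set 49-54) and its adjusted p was 0.0507. ND-B12, another accessory subunit, was at 0.26 ± 0.13 (adjusted p = 0.122), ND-B18 at 0.07 ± 0.11 and ND-B22 at 0.45 ± 0.40, the last with readings from 0.0917 in library 55 to 6.01 in library 75.

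ND-B14, an accessory subunit, passed in 1 set. In set 55-63 it read 0.364, 0.281 and 0.457 in the controls and 0.671, 2.65 and 2.39 on high sugar, a change of 1.91 ± 0.54 (adjusted p = 0.0161, limma), which was not called without library 56, 62 or 63 (1.58 to 1.78, adjusted p 0.0562 to 0.0859). In set 13-21 it had the lowest change of the complex, -0.92 ± 0.54, with 3.06, 2.83 and 2.92 in the controls and 1.102, 2.45 and 1.23 on high sugar. These 2 groups did not overlap, but the change did not pass (adjusted p = 0.518), and the difference between the sets had an adjusted p of 0.0526 in the joint test described below.

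Complex II is succinate dehydrogenase, which also serves the citric acid cycle. None of its 4 genes passed over all sets, and the median change was 0.05, which column-sum scaling turned to -0.08. SdhA, the catalytic flavoprotein, was at 0.05 ± 0.09 and read 0.834, 0.841, 1.0 and 0.617 in the controls of set 67-92 and 1.03, 0.891, 1.08 and 0.670 on high sugar. SdhB, the iron-sulphur subunit, was at 0.05 ± 0.11. SdhD, a membrane anchor, was at -0.32 ± 0.29, below 0 in every set, with values that spread from 0.175 to 2.11 over the libraries.

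SdhC, the other membrane anchor, passed in 1 set. In set 67-92 it read 3.35, 3.89, 3.15 and 4.32 in the controls and 5.61, 9.50, 6.56 and 4.14 on high sugar, with library 92 again within the control range. The change there was 0.74 ± 0.25 (adjusted p = 0.0347, limma). Elsewhere its changes were -0.33 ± 0.29 (13-21), 0.19 ± 0.29 (49-54) and 0.19 ± 0.29 (55-63), and 0.24 ± 0.15 over all sets. With libraries 67 and 83, and 75 and 91, averaged, SdhC did not pass in set 67-92 (0.70, adjusted p = 0.118), nor without library 67, 68, 76, 83 or 91 (0.54 to 0.77, adjusted p 0.0582 to 0.144).

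Complex III, which passes electrons from ubiquinol to cytochrome c, had the highest median change of the 5 complexes, 0.51. Over all sets 4 of its 7 genes rose (57.1%, beside 11.3% of all features). By set the median was 0.18 (13-21), 0.46 (49-54), 0.90 (55-63) and 0.49 (67-92). Among the 4 were both catalytic subunits encoded in the nucleus, Cyt-c1, which carries haem, and RFeSP, the Rieske iron-sulphur protein.

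Cyt-c1 (CG4769) read 1.53, 1.47 and 1.33 in the controls of set 55-63 and 2.47, 2.48 and 3.51 on high sugar. In set 67-92 it read 2.92, 2.22, 2.97 and 2.74 against 4.34, 3.19, 4.79 and 3.19, and in set 49-54 1.49, 1.40 and 1.43 against 1.99, 2.04 and 1.996. In none of these 3 sets did the groups overlap. The change was 0.51 ± 0.09 over all sets (adjusted p = 0.000415, limma), 0.90 ± 0.17 in set 55-63, 0.49 ± 0.15 in set 67-92 and, not passing, 0.46 ± 0.17 in set 49-54 (adjusted p = 0.0554). The call in set 67-92 was lost with the close pairs averaged (0.45, adjusted p = 0.0772), under quantile normalization (0.35), when the set was fitted alone and without library 68, 75 or 91 (0.38 to 0.43, adjusted p 0.0614 to 0.0876).

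RFeSP (CG7361) changed by 0.49 ± 0.14 over all sets (adjusted p = 0.0114, limma), and did not pass without set 49-54 (0.49, adjusted p = 0.0521), 55-63 (0.38) or 67-92 (0.34). It read 2.21, 2.60 and 3.38 against 3.91, 4.66 and 6.35 in set 55-63, and 5.39, 4.75, 5.92 and 4.96 against 9.27, 11.6, 11.3 and 6.26 in set 67-92, with no overlap in either, whereas in set 13-21 it stood at 1.08, 1.34 and 1.32 against 0.782, 1.09 and 1.15. The call in set 55-63 was lost without library 55 or 63 (0.70 and 0.65).

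UQCR-C1 (CG3731), a core protein that faces the matrix, had the largest change among the 12 risers, 0.74 ± 0.17 over all sets (adjusted p = 0.00359, limma). In set 55-63 the control libraries read 1.15, 1.37 and 1.97 and the high-sugar libraries 3.98, 3.92 and 4.29, a change of 1.41 ± 0.33 (adjusted p = 0.00517). Without that set the change over the others was 0.54 and did not pass. Its partner UQCR-C2 was at 0.55 ± 0.26 (adjusted p = 0.106). UQCR-14, which takes part in ubiquinone binding, changed by 0.29 ± 0.10 (adjusted p = 0.0397). It was not called in 13 of the 26 fits that left out 1 library, and all its exonic bases lie under a gene on the opposite strand, CG32576, in the Ensembl annotation; the strand setting of the counting is not given in the sources used here, so reads of the 2 genes cannot be told apart.

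**Figure D3:**
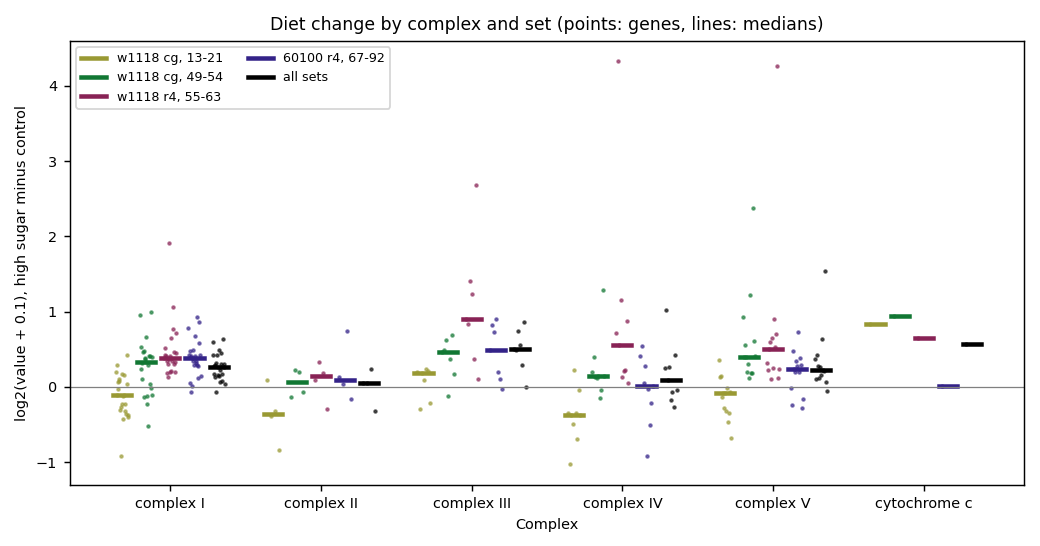
Diet change in log2(value + 0.1), high sugar minus control (vertical axis), of each tested gene (points) by complex (horizontal axis) and set (colours; black is the fit over all sets), with a line at the median. Complex III has the highest medians of the 5 complexes in sets 49-54 (0.46), 55-63 (0.90) and 67-92 (0.49), and complexes II and IV are lowest in set 13-21 (-0.36 and -0.37).

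Cytochrome c, the small carrier between complexes III and IV, is encoded by Cyt-c-p (CG17903) in somatic tissue. It rose by 0.56 ± 0.15 over all sets (adjusted p = 0.00829, limma), and did not pass without set 49-54 (0.45, adjusted p = 0.0623) or 55-63 (0.54, adjusted p = 0.0545). In set 49-54 it read 0.452, 0.725 and 1.13 in the controls and 1.38, 1.65 and 1.45 on high sugar, and in set 55-63 1.01, 0.855 and 1.22 against 1.69, 1.37 and 1.92. The groups did not overlap in these sets, and the test passed in the first (0.95 ± 0.28, adjusted p = 0.0188) and not in the second (0.64 ± 0.28, adjusted p = 0.112). The call in set 49-54 was lost without library 49 or 53 (0.66 and 0.88) and under column-sum scaling (0.57). In set 13-21 the 3 high-sugar libraries lay close together at 3.06, 2.74 and 2.90, while the controls read 1.26, 3.03 and 1.03, the middle one being library 14; the change was 0.83 ± 0.28 (adjusted p = 0.139) and 1.28 without that library. In set 67-92, the groups overlapped, at 2.28, 1.98, 2.12 and 1.79 against 2.14, 1.79, 2.39 and 1.93 (0.01 ± 0.25). The joint test between sets did not pass for this gene.

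**Figure D4:**
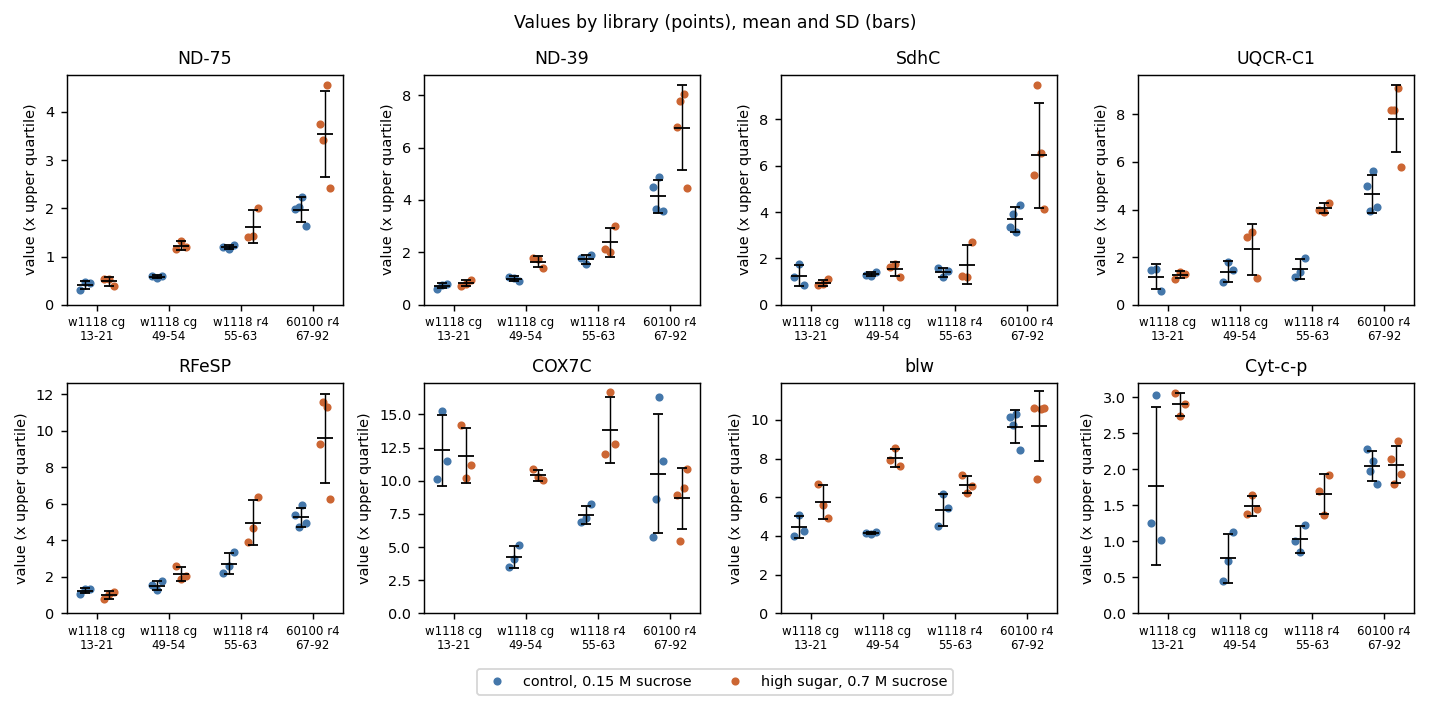
Value in each library (vertical axis, multiples of the library's upper quartile) of 8 genes of the chain, by set (horizontal axis), with control libraries in blue and high-sugar libraries in orange; bars are the mean and SD of 3 or 4 libraries. ND-75, ND-39 and RFeSP separate by diet in sets 49-54 and 55-63, COX7C in the same 2 sets but not in 67-92, and blw most in set 49-54, where controls read 4.11 to 4.23 and high-sugar libraries 7.61 to 8.54.

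Complex IV, cytochrome c oxidase, had 0 of 9 genes called over all sets, where 11.3% of all features were higher and 17.9% lower. Its median was 0.09, which quantile normalization turned to -0.01 and column-sum scaling to -0.06. At the level of single sets it was the least uniform. In set 55-63, 4 of 9 genes rose, COX4, COX5A, COX5B and COX7C (44.4%, beside 8.86% of all features), and the median was 0.56. In set 49-54 only COX7C rose (11.1%, beside 11.6%). In sets 13-21 and 67-92 none passed, with medians of -0.37 and 0.02. Its genes also supplied 3 of the 5 for which the diet change differed between the sets, COX5A, COX5B and COX7C.

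COX7C (CG2249), a small membrane subunit, read 3.51, 4.13 and 5.16 in the controls of set 49-54 and 10.9, 10.2 and 10.1 on high sugar, a change of 1.28 ± 0.28 (adjusted p = 0.00209, limma). In set 55-63 it read 6.88, 7.20 and 8.21 against 12.0, 16.7 and 12.8 (0.88 ± 0.28, adjusted p = 0.0328). In set 67-92 it read 5.77, 8.59, 16.3 and 11.5 against 8.92, 5.47, 9.46 and 10.9 (-0.22 ± 0.25). The groups were apart in the first 2 and mixed in the last, and over all sets the change was 0.42 ± 0.18 (adjusted p = 0.0835). In set 55-63 the call was lost when any of libraries 55, 56, 62 or 63 was left out (0.74 to 0.93, adjusted p 0.058 to 0.132).

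COX4 and COX5B, structural subunits around the catalytic core, passed in set 55-63 alone of the 4 sets. COX5B (CG11015) read 3.35, 3.81 and 3.798 against 5.08, 5.55 and 5.66 there, a change of 0.56 ± 0.16 (adjusted p = 0.0148, limma), with a mean of 3.65 ± 0.263 (SD, n = 3) in the controls and 5.43 ± 0.310 (SD, n = 3) on high sugar. Its change was -0.37 ± 0.16 in set 13-21 (adjusted p = 0.256), 0.13 ± 0.16 in set 49-54 and 0.05 ± 0.14 in set 67-92. COX4 read 5.10, 3.96 and 5.78 against 7.04, 7.70 and 9.81 in set 55-63 (0.72 ± 0.21, adjusted p = 0.022), and its change was -0.35 ± 0.21 in set 13-21, 0.20 ± 0.21 in set 49-54 and 0.40 ± 0.19 in set 67-92 (adjusted p = 0.114). Neither call was kept under column-sum scaling (0.33 for COX5B and 0.49 for COX4); that of COX5B was also lost without library 55 or 62 (0.50 and 0.54) and that of COX4 without library 56 or 63 (0.57 and 0.58).

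COX5A (CG14724), another structural subunit, had very uneven values. In set 55-63 the controls read 0.0603, 0.110 and 0.174 and the high-sugar libraries 2.81, 1.89 and 12.9, a change of 4.33 ± 0.72 (adjusted p = 0.000264, limma). In set 67-92 the same gene read between 13.1 and 15.7 in the controls and 19.9, 33.4, 21.7 and 12.5 on high sugar. Library 14 read 12.0, against 1.56 and 1.39 in the other control libraries of its set. Of the remaining genes, COX7A was at -0.27 ± 0.19, cype, a counterpart of mammalian COX6C, at -0.07 ± 0.12, COX8 at -0.04 ± 0.11 and COX6B at -0.17 ± 0.21 over all sets. COX7A had its 4 high-sugar values of set 67-92 (15.1, 12.8, 17.3 and 15.7) below its 4 control values (23.2, 17.3, 26.2 and 20.3). The nearest of them, in high-sugar library 91 and control library 68, both rounded to 17.32 and so barely differed. COX7A was the only gene of the 57 with such a separation downward there, where 18.8% of all features had one. Its change was -0.50 ± 0.34 and did not pass (adjusted p = 0.298, limma).

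Complex V, ATP synthase, had 2 of 13 genes called over all sets and a median of 0.23, with 12 of 13 changes above 0. The 2 are 15.4%, near the 11.3% of all features that were higher. By set the median was -0.08 (13-21; 0.03 under column-sum scaling), 0.40 (49-54; -0.01 under column-sum scaling), 0.50 (55-63) and 0.24 (67-92). The 2 were ATPsyngamma, the rotor shaft, and blw, the alpha subunit of the catalytic head; ATPsynbeta, which carries the catalytic sites beside it, was at 0.10 ± 0.14.

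ATPsyngamma (CG7610) read 3.71, 2.94 and 3.54 in the controls of set 49-54 and 4.59, 4.96 and 5.58 on high sugar. In set 55-63 it read 5.91, 5.04 and 6.12 against 7.72, 6.65 and 10.2, and in set 67-92 12.6, 9.62, 13.5 and 10.4 against 16.2, 17.4, 18.8 and 12.2. In these 3 sets the groups were apart except for library 92. The change was 0.42 ± 0.10 over all sets (adjusted p = 0.00252, limma), 0.56 ± 0.19 in set 49-54, 0.48 ± 0.17 in set 67-92 and, not passing, 0.50 ± 0.19 in set 55-63 (adjusted p = 0.0709). The calls within sets depended on single libraries and on the scaling, whereas the call over all sets was kept under every alternative run. In set 49-54 the call was lost without any 1 of libraries 50 to 54 (0.46 to 0.62, adjusted p 0.054 to 0.162) and under column-sum scaling (0.15). In set 67-92 it was lost with the close pairs averaged (0.50, adjusted p = 0.0888), without library 68, 75, 76, 84 or 91 (0.40 to 0.47, adjusted p 0.0767 to 0.133) and under quantile normalization (0.31).

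The gene blw (CG3612) passed within 1 set. In set 49-54 it read 4.17, 4.11 and 4.23 in the controls and 7.90, 8.54 and 7.61 on high sugar (0.93 ± 0.16, adjusted p = 0.000186, limma), the smallest p of the 57 genes in that set. In set 67-92 it read 10.1, 9.74, 10.3 and 8.43 against 10.6, 6.96, 10.6 and 10.6 (-0.01 ± 0.14). The change was above 0 without passing in set 13-21 (0.35 ± 0.16, adjusted p = 0.30, limma) and in set 55-63 (0.31 ± 0.16, adjusted p = 0.166). In set 55-63 the groups did not overlap. Over all sets the change was 0.36 ± 0.10 (adjusted p = 0.0109), and without set 49-54 it was 0.20 and did not pass.

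ATPsynG, a small subunit of the membrane part, had the largest standard error of the complex over all sets. It was listed under 0.1 in 8 libraries: all 3 controls and 1 high-sugar library of set 49-54, and all 3 controls and 1 high-sugar library of set 55-63. In the remaining high-sugar libraries of these sets it read 6.60 and 0.240 in 49-54 and 7.50 and 10.4 in 55-63, and it read between 5.98 and 15.4 in every library of sets 13-21 and 67-92. Its change in set 55-63 passed (4.26 ± 1.18, adjusted p = 0.0142, limma) and over all sets did not (1.54 ± 0.64, adjusted p = 0.0718). A like pattern was seen for ox, a small subunit of complex III, listed at 0.0107 in control library 57 and between 2.60 and 8.06 in the other libraries of set 55-63, where its change was 2.68 ± 0.81 (adjusted p = 0.0234). With values under 0.05 treated as missing, ATPsynG had no control value left in set 55-63 and could not be tested there. Under that setting ox was not called (1.03), and the count was 8 of 56 tested genes in place of 11 of 57. Without library 62 or 63 neither was called, with changes of 3.39 and 3.15 for ATPsynG and 2.79 and 2.56 for ox. Without library 57, ox was not called either (1.03). The next largest standard errors of complex V were those of sun, the epsilon subunit of the central stalk (0.11 ± 0.42, with readings from 0.0577 to 10.01), and of ATPsynB, of the peripheral stalk (0.64 ± 0.35, with readings from 0.557 to 16.3). Neither passed in any set.

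ATPsynO, the connector between head and stalk, passed in set 55-63 at 0.65 ± 0.23 (adjusted p = 0.0459, limma) and was lost under 25 of 42 alternatives, 14 of which left out 1 library (0.56 to 0.72, adjusted p 0.0512 to 0.15). ATPsynC was at 0.07 ± 0.12 over all sets and read 12.7, 12.6 and 16.2 against 21.3, 19.4 and 22.3 in set 49-54 (0.61 ± 0.22, adjusted p = 0.0527).

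The joint test of the 3 differences between sets passed for 5 of 57 genes, where the background was 23.8% of all features. They were COX5A (adjusted p = 0.00357, limma), COX7C (adjusted p = 0.0151), blw (adjusted p = 0.0177), COX5B (adjusted p = 0.0248) and RFeSP (adjusted p = 0.0275). For RFeSP and COX5B the change was below 0 in set 13-21 and highest in set 55-63 (for RFeSP 0.83, beside 0.82 in set 67-92), whereas for COX7C and blw it was highest in set 49-54. Sets 13-21, 49-54 and 55-63 share the w1118 stock, 13-21 and 49-54 the cg driver, and 55-63 and 67-92 the r4 driver. Sets 13-21 and 49-54 thus share both stock and driver. The changes in them were -1.03 and 0.40 for COX5A, -0.04 and 1.28 for COX7C and 0.35 and 0.93 for blw. For COX5B they were -0.37 and 0.13, and for RFeSP -0.29 and 0.48. The difference between these 2 sets alone was not tested. Between any other sets the stock or driver changes with the set, so there stock, driver and set of libraries cannot be told apart.

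Within the 8 combinations of set and diet the genes varied together. After the mean of each combination was removed, the median correlation across the 26 libraries was 0.359 over pairs of the 57 genes. It was 0.344 over pairs from different complexes, against 0.00443 over pairs of all features tested. The scaling factor of a library enters every pair, those of all features included. The features compared were not matched to the 57 genes for abundance. Complex I had a median of 0.434, V 0.382, IV 0.368, III 0.304 and II 0.0617. ND-19 followed the mean of the other genes most closely (0.926), ATPsynO next (0.882), and ox least (-0.0684). blw, although called over all sets, had a correlation of 0.0486 with the rest.

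Genes for long proteins made up most of the risers. Of the 20 genes whose protein has over 200 residues 10 rose over all sets, with a median of 0.34, and of the 37 with shorter proteins 2 rose, with a median of 0.23. Among all features the corresponding shares were 11.7% and 10.7%. Across the 57 genes the Spearman correlation of change with protein length was 0.233 over all sets and ran from 0.0274 (55-63) to 0.341 (67-92) by set, whereas across all features it was -0.183 and ran from -0.311 to 0.190; genes are not independent replicates, and libraries were size-selected.

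Of the 13 mitochondrially encoded subunits none passed over all sets (median 0.18, 9 of 13 above 0). Their summed value ran from 895 to 1855 in sets 13-21 and 49-54, from 20.4 to 256 in set 55-63 and from 7.50 to 60.0 in set 67-92, while the sum of the nuclear genes ran from 130.5 to 505. The sets are not on a common scale, so these ranges are not compared between them. In set 49-54 the nuclear sum was 130.5 to 190.6 in the controls and 184.5 to 229.3 on high sugar, and the mitochondrial sum 1082 to 1309 and 927 to 1053. Set 55-63 was the one in which mitochondrial transcripts passed the test: COX2 (4.42 ± 0.52, adjusted p = 8.68e-06, limma), COX1 (2.60 ± 0.38) and ND3 (2.83 ± 0.73) were higher and ND2 (-2.10 ± 0.48) and ATP8 (-2.18 ± 0.72) lower. The summed value of the 13 there was 20.4 to 36.7 in the controls and 85.7 to 256 on high sugar. The nuclear sum there was 170.7 to 211.2 and 244.2 to 318.7.

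**Figure D5:**
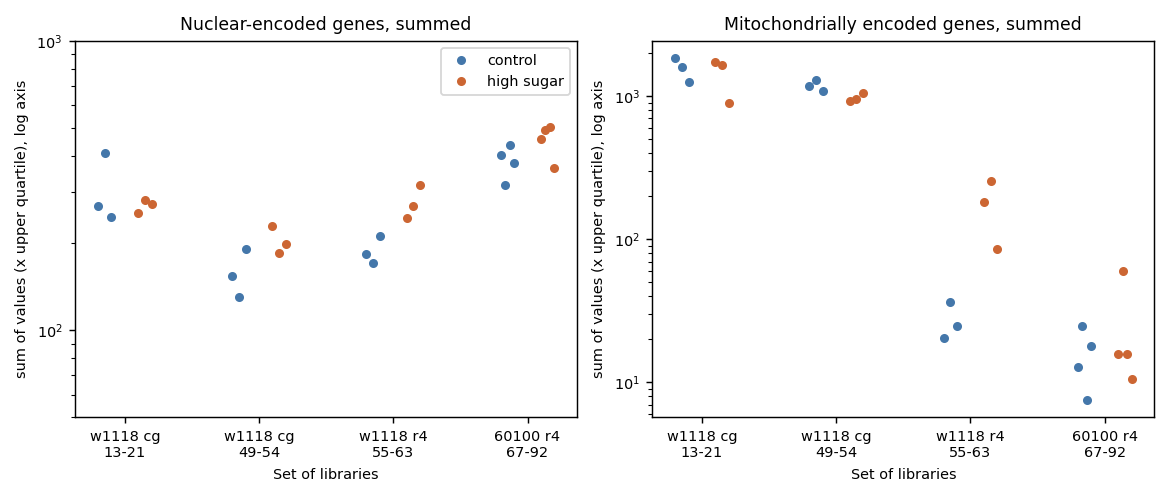
Summed value per library (vertical axes, log scale, multiples of the upper quartile) of the 58 nuclear genes (left) and the 13 mitochondrially encoded subunits (right), by set (horizontal axis), with control libraries in blue and high-sugar libraries in orange. The nuclear sums lie between 130.5 and 505 and the mitochondrial sums between 7.50 and 1855, on scales that differ by set. In set 55-63 neither the nuclear nor the mitochondrial sums overlap between diets, and both are higher on high sugar. In set 49-54 the mitochondrial sums do not overlap either, and those on high sugar are lower.

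Lists of genes that serve the chain were also counted, beside a background over all features of 11.3% higher and 17.9% lower. Of 12 tested assembly factors 3 rose over all sets and 0 fell: Cox10 (0.37 ± 0.11, adjusted p = 0.0124, limma) and Ccdc56 (0.79 ± 0.30, adjusted p = 0.0492), which act in complex IV assembly, and CIA30 (0.26 ± 0.08, adjusted p = 0.0256), which acts on complex I. Sirup, an assembly factor of complex II, fell in set 13-21 by 1.63 on the log2 scale. Scox, which delivers copper to complex IV, was higher in sets 55-63 (0.60 ± 0.19) and 67-92 (0.49 ± 0.17), and in set 67-92 CIA30 was higher (0.46 ± 0.14) and Coa8 lower (-0.93 ± 0.34). Of 5 tested carriers 2 rose, the phosphate carrier Mpcp2 (0.51 ± 0.09, adjusted p = 0.000248) and the ADP/ATP carrier sesB (0.44 ± 0.14, adjusted p = 0.0187), and Bmcp, related to uncoupling proteins, fell (-0.24 ± 0.08, adjusted p = 0.0216). Mpcp2 was also higher in sets 55-63 (0.88 ± 0.16) and 67-92 (0.53 ± 0.14), and porin, a channel of the outer membrane, in set 13-21 (0.50 ± 0.13, adjusted p = 0.0334). None of 8 tested regulators of mitochondrial biogenesis and mitochondrial transcription passed over all sets, and all 8 changes were below 0 (median -0.24). In single sets Myc was lower in 49-54 and 67-92 and higher in 55-63, Ets97D was lower in 49-54, ewg was lower in 55-63 and crc was lower in 67-92. Of 19 matched paralogs of the chain's genes, known mostly from testis, none reached the filter.

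Several tissue markers also differed by diet. Fat body markers were abundant in every library, with summed values from 5269 to 14900, and moved with diet in different directions by set. In set 49-54, 3 of 7 were higher, the storage proteins Lsp1beta, Lsp1gamma and Lsp2, with sums of 5269 to 7162 in the controls and 10470 to 12240 on high sugar. In set 67-92, 3 of 7 were lower (Lsp1alpha, Fbp1 and apolpp) and all 7 changes were below 0, with sums of 13870 to 14900 and 9397 to 13050. In set 55-63, Lsp1alpha and Fbp1 were lower, with sums of 9058 to 12410 and 8928 to 10440, and in set 13-21 Fbp2 was lower, with sums of 8341 to 9572 and 6903 to 8376. Muscle genes, whose tissue is rich in mitochondria, were higher in 8 of 9 tested in set 67-92, led by Mlc2 (2.29 ± 0.33, adjusted p = 0.00013, limma), with sums of 14.1 to 21.5 in the controls and 25.7 to 81.3 on high sugar; in set 13-21 2 of 9 were lower, with sums of 13.1 to 20.3 in the controls and 6.19 to 9.33 on high sugar. In set 49-54 the muscle sums were 3.23 to 4.30 and 2.92 to 5.57, and in set 55-63 6.85 to 11.5 and 10.1 to 12.4. Midgut genes were lower in 2 of 6 in sets 49-54 and 55-63, led by Jon65Aiv and Jon25Bi, with sums of 37.1 to 95.5 and 1.14 to 2.41 in set 55-63. In set 67-92 1 of 6 midgut genes, alphaTry, was higher (2.43 ± 0.75) and 5 of 6 changes were above 0, with sums of 1.99 to 76.9 and 26.2 to 79.7. All 5 haemocyte and all 6 salivary gland genes were lower in set 49-54, with haemocyte sums of 6.41 to 8.84 and 0.282 to 0.619; in set 55-63, 3 of 5 haemocyte genes were lower. The ring gland gene sad was higher in sets 55-63 (2.79 ± 0.62) and 67-92 (3.71 ± 0.54). Of 4 epidermal genes 1 rose in set 67-92, the 2 tested Malpighian tubule genes were lower in sets 49-54 and 67-92, the 1 tested neuronal gene was not called in any set and the 2 matched germline genes did not reach the filter. The part of these tissues in the changes of the respiratory genes was not tested.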

How the data were processed

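Of the 26 libraries, 13 were from larvae on control and 13 on high-sugar diet. Ribosomal RNA was depleted and Illumina reads were taken, per the labels' protocols; TopHat 1.3.2, Bowtie 0.12.7, Cufflinks 1.1.0 and genome build dm3 are listed, with no role given, per the submitters' processing notes. The deposited values are a ratio: in each library the 75th percentile over a fixed number of features (9608, 8320, 8467 or 9853 by set) equals 1, so each value is a multiple of the upper quartile. No unit is named in the table; this was read from the values. Depth is unknown, so no counting interval is given; 6183 to 8709 features were above 0 per library. All columns were mapped to samples through their headers.

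Values were taken as log2(value + 0.1), and features with a mean of at least 0.1 were fitted with limma 3.58.1 in R 4.3.3 (empirical Bayes with a trend). The diet effect over all sets had set and diet as terms; changes within a set and the joint F test came from 8 means with a shared spread. Fold changes on this scale understate those of low genes. The fit was tested on simulated data: over all sets, 56% of 50 genes changed by 0.5 on the log2 scale and 84% of 100 changed by 1 were called, and in set 13-21 8%, 50% and, of 50 changed by 2, 84%, on 6896 genes. Alternatives were other pseudocounts, filters, scalings, set terms and spreads, each set and each library left out, and, chosen after seeing the data, values under 0.05 as missing and the 2 close pairs averaged.

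The 58 genes and the lists of related and marker genes were chosen with earlier results of these data known. Named genes are those of complex II and cytochrome c, per other complex the 3 smallest adjusted p and the most and least abundant, per set the 3 largest rises and falls, the 5 smallest joint p and genes below the filter; further risers and core subunits were named after their values were seen. Symbols and annotation are from RefSeq and, for exon overlap and protein length, the Ensembl BDGP6 canonical transcripts (58 of 58 matched), another build than dm3, so no coordinates are given.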

Additional observations from a re-analysis of the deposited data

Results flagged for a closer look

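The 5 genes below were picked out because their diet change differed between the sets (limma, joint test): COX5A (adjusted p = 0.00357), COX7C (0.0151), blw (0.0177), COX5B (0.0248) and RFeSP (0.0275); their values by set are in the report.

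Single libraries lay far from the rest of their group in 13 of 136 groups tested (34 genes in the 4 groups of 6 or 4 libraries), and chance gives about 1 in 20. The 2 w1118 cg groups pool sets 13-21 and 49-54, which are not on a common scale. Library 14 was high for COX5A (12.0, others 0.606 to 1.75), blw (5.11, others 4.0 to 4.28) and Cyt-c-p (3.03, others 0.452 to 1.26). Among high-sugar w1118 cg libraries, ND-B14 read 2.45 in library 20 (others 0.838 to 1.23), ND-B22 read 3.17 in library 21 (others 0.583 to 1.29), COX6B read 17.8 in library 21 (others 5.0 to 7.33) and COX7C read 14.2 in library 19 (others 10.1 to 11.2). In the 60100 r4 controls ND-B18 read 2.67 in library 68 (others 4.15 to 4.36) and SdhD read 1.66 in library 83 (others 1.32 to 1.35). In the 60100 r4 high-sugar libraries, library 76 was high for ox (12.9, others 5.04 to 5.77) and low for blw (6.96, others 10.6) and ATPsynC (10.04, others 17.8 to 18.5), and COX6B read 5.31 in library 91 (others 4.93 to 4.98).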

How the results depend on the processing

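No paired analysis was possible because the groups share no replicate numbers. Over all sets, 12 genes rose, and the count was 27 without set 13-21, 6 without set 49-54 and 7 without set 55-63; leaving out 1 library gave 11 to 24, the highest without library 14. ND-75, ND-39, ND-42, Cyt-c1 and ATPsyngamma were called under every alternative run. In set 13-21 the robust fit called 1 gene, and leaving out 1 library gave 0 to 1. In set 49-54 the 8 risers became 5 with median-of-ratios scaling or run as a term, 4 with a pseudocount of 1 and 3, with 2 lower, under column-sum scaling; leaving out 1 library gave 4 to 10. In set 55-63 the 11 became 4 when fitted alone and 7 under column-sum scaling; leaving out 1 library gave 4 to 16 (4, 5 and 7 without 63, 62 and 56). In set 67-92 the 6 became 3 with close pairs averaged, 15 with median-of-ratios, 12 with a pseudocount of 1, 3, with 1 lower, under quantile normalization and 24, with 5 lower, in the robust fit; column-sum scaling gave 1 lower; leaving out 1 library gave 3 to 15 higher (15 without 92, 3 without 68 or 91) and 0 to 1 lower. The joint count of 5 became 13 (robust), 2 (column sum) and 3 (without 13-21, 49-54 or 55-63), with 3 to 9 leaving out 1 library. Under column-sum scaling the medians in set 49-54 were -0.066 (I), -0.29 (II), 0.065 (III), -0.27 (IV) and -0.00683 (V), and in set 55-63 0.17 (I) and 0.68 (III); the latter was 0.66 with a pseudocount of 1, and V was 0.26 there under quantile normalization. Leaving out 1 library gave 0.22 to 0.59 (III, 49-54), 0.70 to 0.99 (III, 55-63), -0.54 to -0.10 (IV, 13-21) and -0.23 to 0.18 (V, 13-21). UQCR-14 turned to -0.28 in set 67-92 in the robust fit. The cause was not tested for any of these. The planned search of promoters for motifs was not run.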
